A study of Bos taurus and Cervus elaphus with 24 samples.

Results

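Transcripts of 10 circadian clock genes were followed in the blood of lactating and dry cattle and deer. The genes were CLOCK, ARNTL, PER1, PER2, CRY1, CRY2, NR1D1, NR1D2, DBP and TEF, and probes were matched to them by name. A bovine oligonucleotide array carried 20 probes named for 8 of them. A single TEF probe was found through its gene number in the reference annotation, and a single CRY2 probe through the description in the file. The members were therefore 22 of the 43653 probes on the array.

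Blood of 12 animals was drawn into tubes that fix RNA, and the labels call the material peripheral blood nuclear cells. There were 4 animals each of the cattle breeds Holstein-Friesian (HF) and Polish Red (PR) and of deer (Cervus elaphus). Each animal was bled when dry and again when lactation peaked, which gives 6 groups of 4 arrays. Every array compared an animal's RNA, labelled with Cy5, with a reference pooled from 20 other cattle, labelled with Cy3. Values are log2 ratios of Cy5 over Cy3, so that 0 is the level of the cattle reference for that probe. The labels used here give no age, hour of bleeding, season or housing of any animal. In blood, a lower share of cells that carry a transcript and less transcript per cell cannot be told apart. For deer RNA on cattle probes, transcript level and sequence mismatch cannot be told apart either.

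The clock is a transcriptional feedback loop that runs with a period of about a day in most mammalian cells, blood leukocytes included. CLOCK and ARNTL (also called BMAL1) form a heterodimer that switches on the PER and CRY genes, whose proteins then repress that heterodimer. The nuclear receptors NR1D1 and NR1D2 (REV-ERB alpha and beta) repress ARNTL in a second loop, while DBP and TEF are PAR bZIP transcription factors that carry the rhythm to output genes. PER1 is also a direct target of the glucocorticoid receptor in human and mouse cells.

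Probe design set what each value could show, so the sequences of the probes on which the results turn are given here, 5′ to 3′, with their positions on the cattle assembly UMD_3.1 as the file headers name it. Whether a position is exonic or untranslated was not assigned. ARNTL had 1 probe, at chr15:39841360-39841419 on the minus strand. PER1 had 5 probes on chromosome 19, of which the brightest lay at chr19:28390036-28390095 on the minus strand. Probes A_73_P269921 and A_73_P321081 of PER1 share stretches of 30 and 21 bases with each other, in capitals, so they are not independent measurements. CRY1 had probes at chr5:70604548-70604607 and chr5:70606116-70606175. The NR1D2 probes shown lay at chr27:41878035-41878094 and chr27:41866534-41866593, and the DBP probes at chr18:55722352-55722410 and chr18:55725987-55726046, all on the minus strand.
ARNTL A_73_P075286: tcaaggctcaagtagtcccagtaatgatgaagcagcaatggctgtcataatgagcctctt
PER1 A_73_109217: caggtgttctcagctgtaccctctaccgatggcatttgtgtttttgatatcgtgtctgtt
PER1 A_73_P269921: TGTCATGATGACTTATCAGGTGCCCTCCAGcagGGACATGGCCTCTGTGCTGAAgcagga
PER1 A_73_P321081: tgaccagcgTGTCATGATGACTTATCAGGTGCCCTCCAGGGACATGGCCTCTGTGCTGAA
CRY1 A_73_120289: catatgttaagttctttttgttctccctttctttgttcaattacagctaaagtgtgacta
CRY1 A_73_P091086: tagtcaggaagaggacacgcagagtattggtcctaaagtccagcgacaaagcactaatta
NR1D2 A_73_109757: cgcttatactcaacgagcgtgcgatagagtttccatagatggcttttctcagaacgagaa
NR1D2 A_73_P144816: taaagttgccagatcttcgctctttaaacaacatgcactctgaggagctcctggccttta
DBP A_73_112730: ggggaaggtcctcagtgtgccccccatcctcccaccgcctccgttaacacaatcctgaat
DBP A_73_P040556: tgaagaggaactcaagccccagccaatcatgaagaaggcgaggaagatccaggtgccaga

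These 60-base probes differ in composition. The CRY1 probe A_73_120289 has 31.7% G and C, and the DBP probe A_73_P040556 has 53.3%. Levels are therefore compared between groups for each probe, and never between probes.

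Signal was strong enough for most members but not for all. Of the 22 probes, 14 gave Cy5 signal well above background on all 24 arrays: the ARNTL probe, all 5 PER1 probes, both CRY1 probes, both DBP probes and 1 or 2 probes each of PER2, NR1D1 and NR1D2. The brighter CLOCK probe, A_73_P087641, passed on 15 arrays, and the TEF probe on 10. The other CLOCK probe, A_73_P486893, is placed by the file on chromosome 15 whereas the brighter one is on chromosome 6, and it passed on 9 arrays. PER2 probes A_73_P093936 and A_73_P358191 passed on 2 and 7 arrays. A probe entered a test when 3 or more of the 4 arrays in any group compared passed this check.

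Some arrays stood apart. Median Cy5 brightness lay between 109 and 255 on 23 arrays and was 2038 on the array of PR animal 1 in the dry period. The spike-in correlation was 0.331 on that array and 0.899 or more on most others, but for HF animals 2 and 3 it ran from 0.174 to 0.401 over their 4 arrays. The log2 ratios of deer animals 2 and 4 at peak lactation spread less, with SDs of 0.524 and 0.655 over all probes against 0.804 to 0.847 on the other 6 deer arrays. The deposited columns for these 2 arrays also resembled another deer array more than their own, while the other 22 columns matched their own array best. Values that changed without these 2 deer arrays, a setting chosen after seeing the data, are given beside the results. The dry period arrays of the same 2 animals stayed in those fits, so differences between the states there are not paired. Genes of all blood lineages were present: 8 of 8 T cell, 8 of 8 neutrophil, 8 of 8 monocyte and 7 of 7 B cell markers on the array were above background in every group, and so were 6 of 6 platelet markers and at least 5 of 7 erythroid markers.

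**Figure D1:**
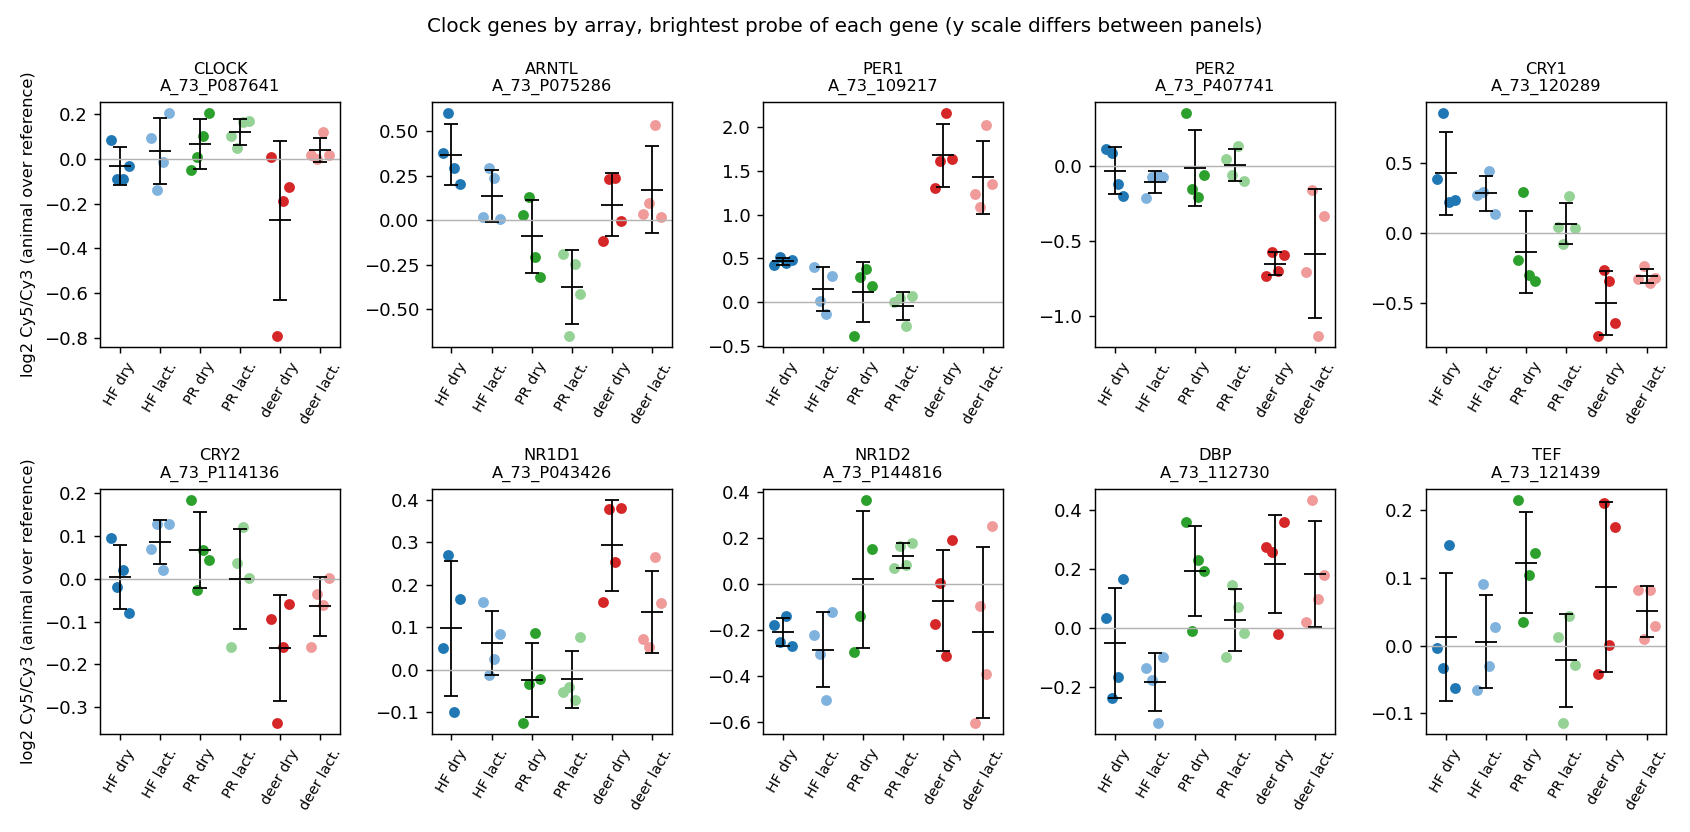
Log2 Cy5/Cy3 of the brightest probe of each of the 10 clock genes on all 24 arrays, with points for animals and black bars for the group mean and SD (n = 4). PER1 in the 8 deer arrays lies between 1.09 and 2.16, above every cattle array, and PER2 and CRY1 lie lower in deer than in most cattle.

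Peak lactation against the dry period was the comparison of the study. No clock probe passed an adjusted p of 0.05 in limma in HF (0 of 16 tested), PR (0 of 17) or deer (0 of 19). The background was as low: 0.00906% of all tested probes were called in HF, 0% in PR, 0.00599% in deer and 0.00299% for the mean of both cattle breeds. At an unadjusted p of 0.05, 2 clock probes of 16 passed in HF, against 8.11% of all probes. In PR 1 of 17 passed against 6.04%, in deer 2 of 19 against 9.54%, and for both breeds together 3 of 17 against 9.59%. More clock probes were lower than higher at peak lactation. In HF 13 of 16 were lower against 52.8% of all probes, with a median of -0.07 (log2) against -0.01. In PR 12 of 17 were lower against 43.9%, with a median of -0.05 against 0.02. For both breeds together 11 of 17 were lower against 46.5%, and in deer 11 of 19 against 47.6%. Several probes belong to the same gene, so these counts are not of independent members.

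The activator ARNTL had the most regular pattern in cattle. Its log2 ratios in HF animals 1 to 4 were 0.38, 0.60, 0.29 and 0.20 in the dry period and 0.02, 0.29, 0.24 and 0.01 at peak lactation. In PR animals 1 to 4 they were 0.03, 0.13, -0.20 and -0.32 in the dry period and -0.19, -0.65, -0.24 and -0.41 at peak lactation. The level was thus lower at peak lactation in each of the 8 cattle, although the groups of the 2 states overlapped in both breeds. No other clock probe among the 17 tested over both breeds had this pattern, and ARNTL was singled out after the values were seen. Of all tested probes, 1.03% were lower in 8 of 8 cattle.

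The mean difference of ARNTL was -0.23 ± 0.13 (SE, n = 4) in HF and -0.28 ± 0.13 in PR, with limma adjusted p of 0.731 and 0.797. For both breeds together it was -0.26 ± 0.09, with an unadjusted limma p of 0.0124 and an adjusted p of 0.355. With slide as a fixed factor it was -0.22 (adjusted p = 0.343), and within the slides that held both states it ran from -0.36 to -0.06 in HF and from -0.45 to -0.01 in PR. In deer the values were -0.12, 0.23, 0.24 and -0.01 in the dry period and 0.04, 0.10, 0.54 and 0.02 at peak lactation, with 3 of 4 animals higher. The deer change exceeded the cattle change by 0.34 ± 0.16, which did not pass (limma adjusted p = 0.560). Without deer animal 3 at peak lactation the ARNTL change in deer was -0.04, and it exceeded the cattle change by 0.22 (limma adjusted p = 0.926 and 0.556). That fit kept the dry period array of animal 3 and so is not paired. Deer animals 1, 2 and 4 themselves changed by 0.15, -0.13 and 0.02. CLOCK, the partner of ARNTL, was measured by a dimmer probe in HF and was not tested there. In PR its difference was 0.06 ± 0.12 (limma adjusted p = 0.967).

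In deer the CLOCK difference rested on a probe near background. The values of A_73_P087641 in deer animals 1 to 4 were 0.01, -0.79, -0.19 and -0.12 in the dry period and 0.02, -0.0005, 0.12 and 0.02 at peak lactation. All 4 deer were higher at peak lactation, by 0.31 ± 0.12 in the mean (limma adjusted p = 0.450), and deer animal 2 in the dry period stood far below the others. Without that array the CLOCK difference was 0.14 (limma adjusted p = 0.650). In deer the probe was above background on 1 of 4 arrays in the dry period and on 3 of 4 at peak lactation, so it entered the test only through the lactating group. The dry period array of animal 2 was above background in neither Cy5 nor Cy3. The size of this difference is therefore not firm. The other CLOCK probe, A_73_P486893, went the other way and was lower at peak lactation in all 4 deer, by -0.08, -0.01, -0.05 and -0.08. It was above background on 4 of 4 deer arrays in the dry period and 2 of 4 at peak lactation, and was not called.

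**Figure D2:**
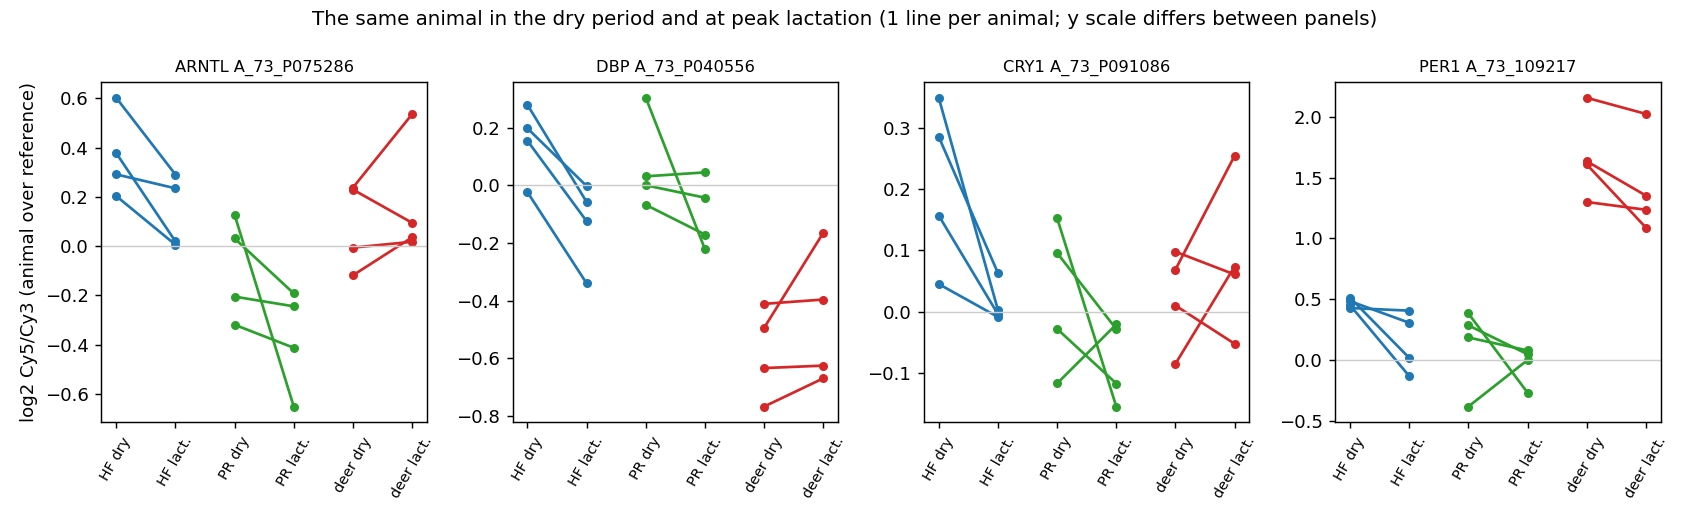
Log2 Cy5/Cy3 of 4 probes when animals were dry and at the peak of lactation, 1 line per animal, for ARNTL, DBP (A_73_P040556), CRY1 (A_73_P091086) and PER1 (A_73_109217), probes chosen for display after their values were seen. The ARNTL line falls in all 8 cattle and rises in 3 of 4 deer.

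Among the repressors, no PER1 probe was called. The brightest probe gave 0.43, 0.51, 0.45 and 0.48 in HF animals 1 to 4 in the dry period and 0.41, 0.02, -0.13 and 0.31 at peak lactation. All 4 HF animals were lower at peak lactation and the groups did not overlap, but animals 2 and 3 differed most, and these are the animals with low spike-in correlations. The mean PER1 difference was -0.32 ± 0.19 (limma adjusted p = 0.758), and -0.10 without these 2 animals. In PR animals 1 to 4 the probe read -0.38, 0.28, 0.38 and 0.18 in the dry period and -0.001, 0.05, -0.27 and 0.08 at peak lactation. Animal 1, whose dry period array was the bright one, was the only one of the 8 cattle that read higher at peak lactation. The PR difference was -0.15 ± 0.19 (limma adjusted p = 0.926) and was -0.32 without that array, also not called. For both breeds together it was -0.24, and -0.32 without that array (limma adjusted p = 0.607 and 0.397). The other PER1 probes did not share this pattern. A_73_P065311, A_73_P269921, A_73_P321081 and A_73_P347211 were lower at peak lactation in 4, 5, 5 and 2 of 8 cattle.

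In deer all 5 PER1 probes had lower means at peak lactation, by 0.11 to 0.25 on the log2 scale. The smallest limma adjusted p was 0.453, for probe A_73_P347211, which read 0.29, 0.29, 0.19 and 0.27 in the dry period and 0.09, 0.06, 0.19 and 0.04 at peak lactation. It was the only clock probe in the authors' deposited tables, among the 576 probes they selected in deer. The authors' deposited table gives it 0.74, 0.69, 0.55 and 0.67 in deer 1 to 4 in the dry period and 0.32, 0.52, 0.30 and 0.32 at peak lactation, on a log2 scale centred near each probe's median over the arrays, whose other steps are not given in the sources used here. These differences depended on single arrays and on scaling. Without the 2 deer arrays with narrow ratios the difference of the brightest PER1 probe was -0.05 and that of A_73_P347211 was -0.12 (limma adjusted p = 0.995 and 0.993). With the arrays scaled to equal spread, the difference of the brightest PER1 probe was 0.40 in the opposite direction, and that of A_73_P347211 was -0.07.

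PER2, CRY1 and CRY2 showed no called change. The PER2 probe A_73_P407741 differed by -0.07 ± 0.15 in HF, 0.02 ± 0.15 in PR and 0.07 ± 0.15 in deer. The dimmer CRY1 probe A_73_P091086 was lower in 4 of 4 HF and 3 of 4 PR animals, reading 0.29, 0.35, 0.05 and 0.16 in HF in the dry period and 0.06, 0.003, -0.01 and -0.004 at peak lactation. These HF groups overlapped only between animal 3 in the dry period and animal 1 at peak lactation, and the difference was -0.20 ± 0.08 (limma adjusted p = 0.476). The other CRY1 probe, A_73_120289, differed by -0.14 ± 0.14 in HF and 0.20 ± 0.14 in PR, so the 2 probes of this gene did not move alike in PR. CRY2 differed by 0.08 ± 0.07 in HF, -0.07 ± 0.07 in PR and 0.10 ± 0.07 in deer.

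No probe of the REV-ERB receptors, which repress ARNTL, was called between the states. NR1D1 (A_73_P043426) read 0.05, 0.27, -0.10 and 0.17 in HF animals in the dry period and 0.16, -0.01, 0.02 and 0.08 at peak lactation, with overlapping groups. Its mean difference was -0.03 ± 0.08 in HF, with a 95% interval of -0.19 to 0.13, 0.001 ± 0.08 in PR and -0.16 ± 0.08 in deer (limma adjusted p = 0.984, 0.999 and 0.537). The brightest NR1D2 probe differed by -0.08 ± 0.15, 0.10 ± 0.15 and -0.14 ± 0.15 in HF, PR and deer.

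The output gene DBP was lower at peak lactation in most cattle. Probe A_73_P040556 read 0.20, 0.15, -0.02 and 0.28 in HF animals 1 to 4 in the dry period and -0.003, -0.12, -0.34 and -0.06 at peak lactation. Each HF animal was lower, and the groups overlapped only through animal 3 in the dry period. In PR it read 0.03, 0.30, -0.07 and 0.0003 in the dry period, then 0.05, -0.22, -0.17 and -0.04 at peak lactation, lower in 3 of 4 animals. For both breeds the difference was -0.22 ± 0.08 (limma adjusted p = 0.340), and the brighter DBP probe gave -0.15 ± 0.08 (limma adjusted p = 0.543). In deer A_73_P040556 was higher in 4 of 4 animals, by 0.11 ± 0.11 (limma adjusted p = 0.778). The group difference was -0.03 with Agilent's processed signals and -0.04 with arrays scaled to equal spread. Without the 2 deer arrays with narrow ratios it was -0.07, but that fit kept the dry period arrays of animals 2 and 4. Deer animals 1 and 3, with both arrays left, changed by 0.10 and 0.01, so their own direction did not turn. TEF, a relative of DBP, was tested only where deer entered, and differed by -0.04 ± 0.07 between the states in deer (limma adjusted p = 0.896).

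**Figure D3:**
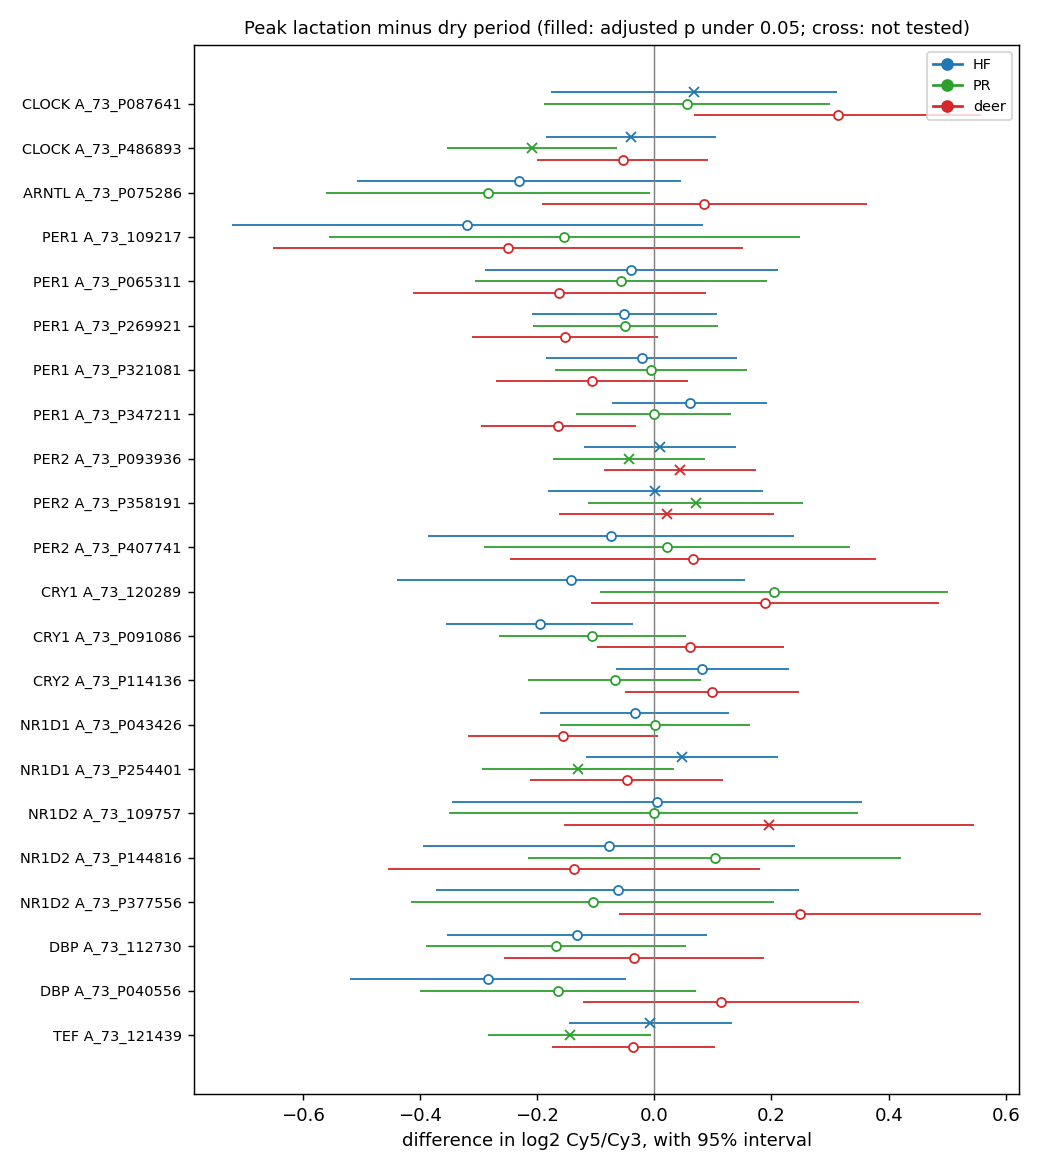
Peak lactation minus dry period in log2 Cy5/Cy3 for all 22 clock probes in HF, PR and deer, with 95% intervals from limma; open circles did not pass the adjusted p of 0.05 and crosses were not tested. No probe is filled, and the ARNTL points of HF and PR lie at -0.23 and -0.28 while that of deer lies at 0.09.

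Levels of some blood cell markers also differed between the states. The mean log2 ratio of 8 neutrophil markers ranged from -1.10 to -0.37 over the HF arrays in the dry period and from -0.32 to 1.08 at peak lactation. In PR it ranged from -1.52 to -0.66 and then from -0.49 to 0.20, so the groups did not overlap in PR or HF. All 8 had higher means at peak lactation in both breeds, with medians of 1.15 in HF and 0.60 in PR. In deer the neutrophil mean ranged from 0.11 to 0.99 and then from -0.87 to 0.28, with 7 of 8 markers lower and a median of -0.58. The mean of 8 monocyte markers ranged from -0.78 to -0.50 in HF in the dry period and from -0.30 to 0.27 at peak lactation, and in PR from -1.17 to -0.66 and then from -0.63 to -0.12. The 7 B cell markers ranged from 0.09 to 0.62 in HF in the dry period and from -0.26 to 0.09 at peak lactation, and in PR from -0.62 to 0.35 and then from -0.25 to 0.18. Erythroid markers in deer ranged from -1.31 to -0.21 and then from -1.86 to -1.15, with 5 of 5 tested lower. In cattle 6 of 6 tested were higher in HF and 6 of 6 lower in PR. Median differences in HF, PR and deer were -0.14, 0.03 and -0.005 for T cell markers and -0.40, -0.08 and 0.22 for NK markers. For platelet markers they were -0.09, -0.07 and -0.18. No marker of these lists was called by limma in HF, PR or deer. At an unadjusted p of 0.05, 8 of 8 neutrophil and 6 of 8 monocyte markers passed in HF, 2 and 5 in PR, and 2 and 0 in deer. Of all named genes 7.96%, 6.88% and 10.2% passed. The part of these differences in the clock gene values was not tested.

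The lactation responses of the clock genes did not differ between breeds or species after adjustment. Of 17 probes tested, 0 passed for the HF against the PR response, where limma called 0% of all probes. Of 20 tested, 0 passed for deer against cattle, where it called 0% too. At an unadjusted p of 0.05 the counts were 0 of 17 against 3.23% of all probes, and 4 of 20 against 8.86%. The 4 were ARNTL, PER1 A_73_P347211, CRY1 A_73_P091086 and DBP A_73_P040556, with differences of 0.34, -0.19, 0.21 and 0.34. The other 3 had lower means at peak lactation in cattle and higher ones in deer, and that PER1 probe a lower one in deer. Without the 2 deer arrays with narrow ratios, and with the dry period arrays of those animals kept, the DBP difference was 0.15 (limma adjusted p = 0.941). These names were read off after the values were seen.

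Between the breeds, the means of CRY1 and ARNTL were higher in HF, but only a CRY1 probe in the dry period was called. In the dry period 1 of 17 clock probes was called by limma, against 3.17% of all probes (2.75% higher and 0.428% lower in HF). It was the bright CRY1 probe A_73_120289, with 0.39, 0.86, 0.22 and 0.24 in HF and -0.19, 0.29, -0.30 and -0.34 in PR. The groups overlapped through PR animal 2. The difference was 0.56 ± 0.14 (limma adjusted p = 0.0395), and the call was lost when any HF array or any PR array other than that of animal 2 was left out, with differences of 0.42 to 0.63. The other CRY1 probe, A_73_P091086, had means of 0.21 in HF and 0.03 in PR in the dry period and was not called. At peak lactation the bright CRY1 probe had means of 0.29 in HF and 0.07 in PR, also not called. Slide and breed were nearly inseparable, because only 1 slide held dry period arrays of both breeds and none held lactation arrays of both. On the shared slide the bright CRY1 probe read 0.24 in HF animal 4 and 0.29 in PR animal 2. ARNTL read 0.20 and 0.13 there. With slide as a fixed factor the CRY1 difference was -0.03 (limma adjusted p = 1).

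ARNTL differed in the same direction in both states without passing. The difference was 0.46 ± 0.13 when the animals were dry and 0.51 ± 0.13 at peak lactation, with limma adjusted p of 0.0581 and 0.0907. Without PR animal 2 in the dry period, that state's ARNTL difference was 0.53 and passed (limma adjusted p = 0.0168). At peak lactation the HF arrays, from 0.01 to 0.29, lay above all PR arrays, from -0.65 to -0.19. With slide as a fixed factor the ARNTL differences were 0.09 and 0.07. At peak lactation 0 of 17 clock probes passed, against 0.0121% of all probes, and 2 passed at an unadjusted 0.05 against 15%. The second was NR1D2 A_73_P144816, with a difference of -0.41 ± 0.15 (limma adjusted p = 0.216). In HF it read -0.22, -0.30, -0.51 and -0.12 and in PR 0.07, 0.16, 0.08 and 0.18, without overlap.

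**Figure D4:**
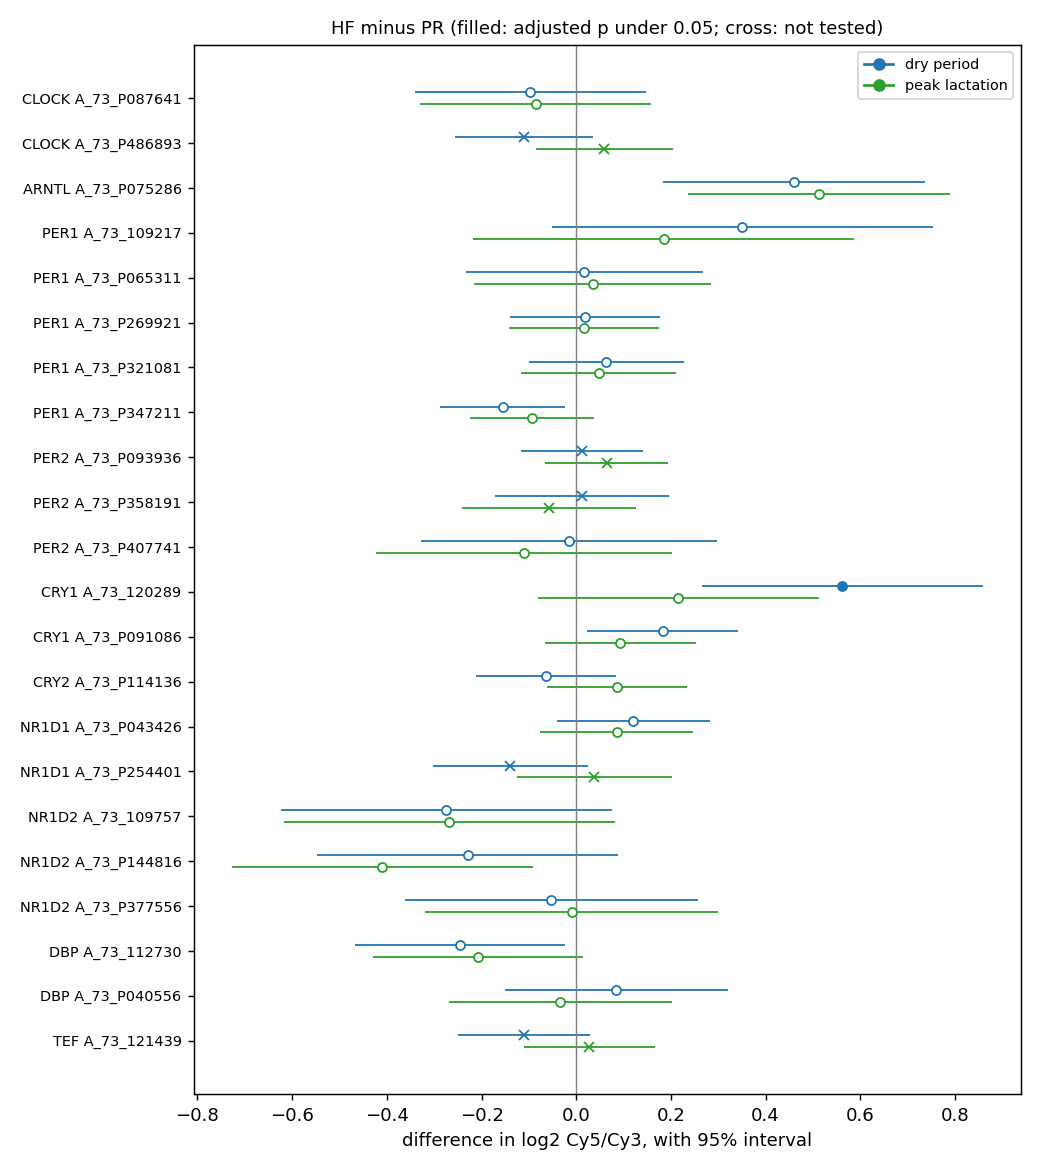
HF minus PR in log2 Cy5/Cy3 for the 22 clock probes in each state, with 95% intervals from limma. The filled point is CRY1 A_73_120289 in the dry period at 0.56, and the ARNTL points lie at 0.46 and 0.51.

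Deer differed from cattle in most clock probes, as they did in probes of every kind. In the dry period 13 of 20 clock probes were called against 57.4% of all probes, and at peak lactation 10 of 17 against 49.3%, so the share was near the background. Of the clock probes, 6 were called higher and 7 called lower in the dry period, where 26.7% and 30.7% of all probes were called higher and lower. At peak lactation 6 were called higher and 4 called lower, against 22.2% and 27.2%. Deer and cattle arrays shared no slide, so slide and species cannot be told apart.

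PER1 was higher in deer in both states. The brightest probe read 1.30, 1.61, 2.16 and 1.63 in deer in the dry period and 1.23, 1.09, 2.02 and 1.35 at peak lactation, while the 16 cattle arrays lay between -0.38 and 0.51. All 8 deer values lay above all cattle values. The difference was 1.38 ± 0.17 in the dry period, a 2.61-fold higher ratio, and 1.37 ± 0.17 at peak lactation (limma adjusted p = 4.37e-07 and 7.35e-07). The other 4 PER1 probes were higher too in the dry period, by 0.24 to 0.53. At peak lactation 3 of these 4 were called and A_73_P347211 was not (0.05 ± 0.05, limma adjusted p = 0.469). The call of A_73_P269921 at peak lactation was marginal (0.16 ± 0.07, limma adjusted p = 0.0495) and was lost when any of 9 arrays was left out in turn, and A_73_P321081 lost its call without deer animal 3 (0.13). Without the 2 deer arrays with narrow ratios these PER1 probes gave 0.29 and 0.34, A_73_P065311 gave 0.68 in place of 0.42, and the brightest 1.57, all called. In the order of group means of the brightest probe, PR and HF groups were neighbours with overlapping arrays except for HF at peak lactation below HF in the dry period, and deer stood apart above both breeds.

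PER2 and CRY1 were lower in deer. The PER2 probe A_73_P407741 read -0.73, -0.57, -0.69 and -0.59 in deer in the dry period, below all 8 cattle arrays of that state, which lay between -0.20 and 0.35. The difference was -0.63 ± 0.13, and -0.53 ± 0.13 at peak lactation (limma adjusted p = 0.000312 and 0.00176). At peak lactation the 4 deer read -0.70, -0.16, -1.13 and -0.33, and animals 2 and 4, whose arrays had narrow ratios, lay nearest to 0. Without those 2 arrays the PER2 difference was -0.87. With Agilent's processed signals the PER2 differences of the dry and lactating states were -1.08 and -1.45. The bright CRY1 probe differed by -0.64 ± 0.12 and -0.48 ± 0.12 (limma adjusted p = 0.000143 and 0.00261), but the other CRY1 probe by -0.09 ± 0.07 and 0.12 ± 0.07 (limma adjusted p = 0.234 and 0.151). CRY2 was lower in deer in the dry period (-0.20 ± 0.06, limma adjusted p = 0.00899), a call lost without deer animal 2, and it was not called at peak lactation (limma adjusted p = 0.160).

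For the activators CLOCK and ARNTL the calls rested on single arrays. CLOCK A_73_P087641 was lower in deer in the dry period (-0.29 ± 0.10, limma adjusted p = 0.0185). The probe was above background on 1 of 4 deer, 2 of 4 HF and 4 of 4 PR arrays of that state, and it entered the test through PR. Without deer animal 2 it was -0.12 and no longer called. ARNTL did not differ in the dry period (-0.05 ± 0.12, limma adjusted p = 0.717) and was higher in deer at peak lactation (0.29 ± 0.12, limma adjusted p = 0.0421). That call was lost when any of 5 arrays was left out in turn: HF animals 1 and 4, PR animals 2 and 4 and deer animal 3, without which it was 0.17. Without deer animals 2 and 4 it was 0.40 (limma adjusted p = 0.0305).

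For NR1D2 and DBP the probes of a gene disagreed. NR1D2 A_73_109757 was above background in Cy5 on all 16 cattle arrays and on 0 of 8 deer arrays, although its Cy3 signal, from cattle RNA, was above background on all 24. Mean Cy5 signal was 1.96-fold higher in cattle than in deer in the dry period and 1.74-fold higher at peak lactation. For these folds each deer array was set at the higher of the probe's own signal and the lowest signal of any probe above background. The own signal was the higher, so the folds are plain differences of means, given without an interval. Limma adjusted p of the Cy5/Cy3 ratios was 1.11e-05 and 0.000209. The probe entered both tests only through the cattle groups, where it was brighter, so these p values are no separate support. Without deer animals 2 and 4 the adjusted p at peak lactation was 3.02e-07. The brightest NR1D2 probe, A_73_P144816, differed by 0.02 ± 0.13 and -0.13 ± 0.13 (limma adjusted p = 0.901 and 0.448), but without those 2 animals it was -0.42 at peak lactation and was called (limma adjusted p = 0.0173). The third, A_73_P377556, was lower in the dry period (-0.34 ± 0.13, limma adjusted p = 0.028), and deer animal 2 at -0.93 carried that difference, which was -0.12 without it. Without HF animal 1 in the dry period that call was lost as well, at -0.32.

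The DBP probe A_73_P040556 was lower in deer in both states, at -0.77, -0.49, -0.63 and -0.41 in the dry period and -0.67, -0.16, -0.63 and -0.40 at peak lactation. The differences were -0.69 ± 0.10 and -0.35 ± 0.10 (limma adjusted p = 4.0e-06 and 0.00529), and at peak lactation it was -0.53 without deer animals 2 and 4. The brighter DBP probe, A_73_112730, was not called in the dry period (0.15 ± 0.09) and was higher in deer at peak lactation (0.26 ± 0.09, limma adjusted p = 0.0223), a call lost without deer animal 2 (0.18) and without animals 2 and 4 together (0.14, limma adjusted p = 0.323). NR1D1 was higher in deer in the dry period, at 0.16, 0.38, 0.25 and 0.38 against -0.12 to 0.27 in cattle, with overlap, and differed by 0.26 ± 0.07 (limma adjusted p = 0.00271). At peak lactation its difference was 0.12 ± 0.07 (limma adjusted p = 0.164). TEF differed by 0.02 ± 0.06 in the dry period (limma adjusted p = 0.803).

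**Figure D5:**
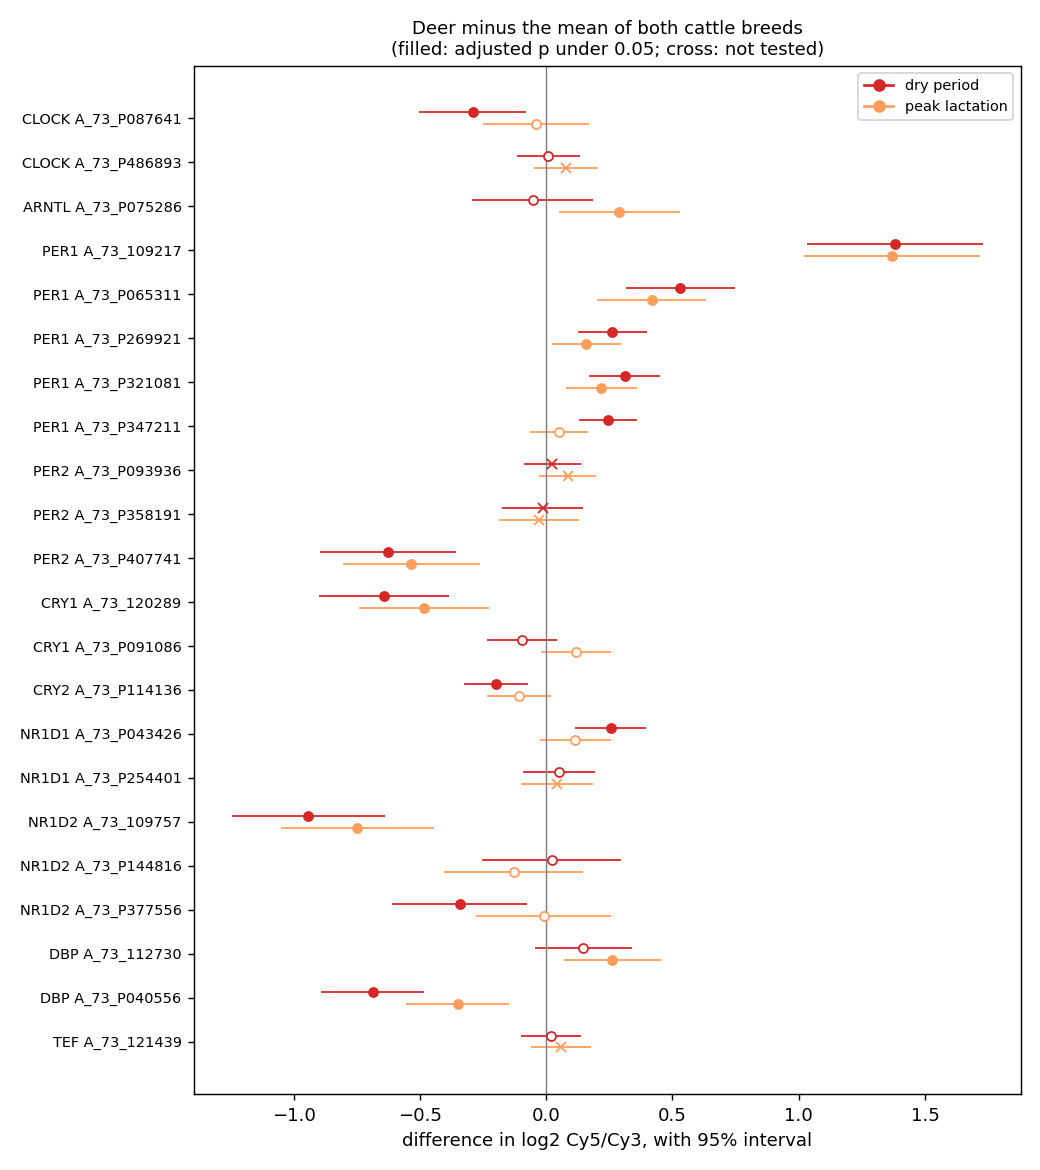
Deer minus the mean of both cattle breeds in log2 Cy5/Cy3 for the 22 clock probes, with 95% intervals from limma; filled circles passed an adjusted p of 0.05. All 5 PER1 probes lie above 0 in both states, and the DBP probes lie on different sides of 0. Of the NR1D2 points only that of A_73_P144816 in the dry period lies above 0, and only just.

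Of 41 further clock genes listed, among them the ROR receptors, the BHLHE40 and BHLHE41 repressors and casein kinases, 38 were on the array. None was called by limma for peak lactation against the dry period in HF, PR or deer, with 34 tested in each. At an unadjusted p of 0.05, 4, 3 and 4 passed, against 7.96%, 6.88% and 10.2% of all named genes. Medians were 0.01 in HF, 0.10 in PR and -0.01 in deer, beside -0.02, 0.05 and 0.02 for the brightest probes of all named genes. The lowest p in HF belonged to NFIL3, which represses the D-box elements that DBP activates, at 0.96 ± 0.35, with means of -0.41 ± 0.53 (SD, n = 4) and 0.55 ± 0.45 (limma adjusted p = 0.436). CREB1, the cAMP response factor, followed at 0.28 ± 0.12 (limma adjusted p = 0.510). In PR the lowest p values were those of KLF10 and SIRT1, at 0.79 ± 0.21 and 0.19 ± 0.09 (both limma adjusted p = 0.797). In deer they were those of BHLHE41 and NPAS2, at 0.74 ± 0.27 and -0.15 ± 0.06 (limma adjusted p = 0.447 and 0.462). Between the breeds in the dry period 4 of 34 were called, against 4.09% of the brightest probes of all named genes, all higher in HF: KLF10 by 1.03 ± 0.21, TIPIN by 0.97 ± 0.21, BHLHE40 by 0.83 ± 0.21 and WDR5 by 0.51 ± 0.13 (limma adjusted p from 0.0232 to 0.0400). Between deer and cattle 12 were called higher and 9 called lower of 35 in the dry period, 60% against 58.6% of all named genes. At peak lactation 6 were called higher and 7 called lower of 34, 38.2% against 51.7%. BHLHE41 was lower in deer in the dry period, at -3.73 ± 0.24 (limma adjusted p = 3.47e-11). PER3, the third PER gene, was lower in deer in both states, at -0.47 ± 0.09 and -0.29 ± 0.09 (limma adjusted p = 0.000201 and 0.0144).

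Because PER1 responds to glucocorticoids, 15 known glucocorticoid response genes were set beside it. None was called in any lactation comparison. At an unadjusted p of 0.05, 5 in HF, 1 in PR and 0 in deer passed, against 7.96%, 6.88% and 10.2% of all named genes. In HF 12 of 15 were higher at peak lactation, with a median of 0.52 against -0.02 for all named genes, and in PR 12 of 15, with a median of 0.20 against 0.05. In deer 6 were higher and 9 lower, with a median of -0.01. The chemokine receptor CXCR4 gave 1.21 ± 0.32 in HF and the kinase SGK1 1.05 ± 0.32, both higher in 4 of 4 animals (limma adjusted p = 0.280 and 0.322). In PR the kinase PDK4 gave 1.19 ± 0.24, also higher in 4 of 4 (limma adjusted p = 0.532), and TSC22D3 0.47 ± 0.26 (limma adjusted p = 0.80). In deer IL1R2 gave -0.84 ± 0.44 and ZBTB16 -0.19 ± 0.10 (limma adjusted p = 0.560 and 0.573). The brightest PER1 probe had negative differences in all 3. The mean of PER1 probe A_73_P347211 was not lower at peak lactation in HF (-0.06 when dry and -0.002 at peak lactation). The PER1 probes other than the brightest were lower in 2 to 5 of 8 cattle. The neutrophil marker means given above were higher at peak lactation in the same cattle, and their part was not tested.

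Across the 12 animals, 8 relations between the changes of clock genes and their partners were examined, with each change centred on its breed or species. None passed an adjusted p of 0.05 in an exact two-sided permutation test within breed or species. The changes of PER1 and PER2 had a Pearson r of -0.71 (exact permutation p = 0.0129, adjusted 0.0775) and a Spearman rho of -0.65 (exact permutation p = 0.0418, adjusted 0.167). Their r was -0.80 in the 8 cattle alone and -0.56 without the 2 animals farthest from the median. PER1 and TSC22D3, a glucocorticoid-induced leucine zipper protein, had an r of 0.79 (exact permutation p = 0.0194, adjusted 0.0775) and a rho of 0.66 (exact permutation p = 0.0393, adjusted 0.167). This r fell to 0.40 without the 2 farthest animals, to 0.62 without PR animal 1, whose dry period array was the bright one, and to 0.24 when all tested probes of each gene were averaged, so it rests on few animals and on the choice of probe. In the 8 cattle alone it was 0.85. Without HF animal 2 both relations passed (r = -0.75 and 0.83, both adjusted p = 0.0463), and without HF animal 4 that of PER1 and PER2 did (r = -0.80, adjusted p = 0.0370). NR1D1 and ARNTL, the repressor and its target, had an r of 0.30 and a rho of 0.39 (exact permutation p = 0.315 and 0.200, adjusted 0.504 and 0.399). The remaining 5 relations had r from -0.53 to 0.09 and adjusted p of 0.440 or more.

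Genes whose log2 ratios over the 24 arrays, after removal of group means, were most like those of a clock gene were sought among 14394 named genes. For PER1 they were TWIST2 (r = 0.91), CRYM (r = 0.84) and METTL3 (r = 0.82). For ARNTL they were RIC8B (r = 0.77), NECAP1 (r = 0.76) and SETD6 (r = 0.76), and for NR1D1 they were GH1 (r = 0.70), BAIAP2L1 (r = 0.67) and CELSR1 (r = 0.67). The points share arrays and therefore array quality, the bright array of PR animal 1 included.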

How the data were processed

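Blood RNA of 12 animals was hybridised to 24 two-colour bovine arrays of 60-base probes. Per the file headers, spots were read with Agilent Feature Extraction 10.10.1.1 (10.7.3.1 per the submitters' processing notes), and the deposited files hold intensity (mean and processed spot signals and local background), its log10 ratio of Cy5 over Cy3 and yes-or-no calls of detection. The authors also deposited 3 tables of log2 ratios for 437 (HF), 158 (PR) and 576 (deer) selected probes, chosen by analysis of variance and Tukey's comparison per the series text.

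Mean intensities were corrected with normexp (offset 50) and normalised by loess within arrays in limma 3.58.1 (statmod 1.5.0, R 4.3.3), with control spots and outlier spots given no weight, and spots of a probe were averaged. A reference annotation helped to name 34743 of the 43653 probes. A model of 6 group means over 24 arrays (lmFit, eBayes) gave every comparison, with Benjamini-Hochberg adjustment over all tested probes. Probes entered a test when Cy5 passed Feature Extraction's background check on 3 or more of the 4 arrays in any group compared. The brightest probe stands for a gene in lists, relations and likeness. Named genes of the other lists are the 2 with the lowest p in each lactation comparison, and those called between breeds. BHLHE41 and PER3 between species were named after their values were seen. The number of arrays limits precision. The 4 animals of a group are separate animals, and same-numbered arrays share the animal. Their deviations from the group means correlated above 0.1 for all 4 HF and all 4 deer animals and for 2 PR animals. The fits were tested on simulated data. Members, lists and tests were chosen with earlier results of these data known. Python 3.11.15 with matplotlib 3.10.9 made the plots.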

Additional observations from a re-analysis of the deposited data

Results flagged for a closer look

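In each of 132 groups of 4 arrays, 1 group per probe and condition, the highest or lowest array was compared with the rest by Dixon's ratio at a critical value of 0.829. Chance alone marks about 1 in 20 groups, and 9 of the 132 were marked. Among deer at peak lactation, animal 3 stood above the others for ARNTL, at 0.54 against 0.02 to 0.10, and for CLOCK A_73_P087641, at 0.12 against -0.0005 to 0.02. Deer animal 1 at peak lactation stood high for the dim PER2 probe A_73_P093936, at 0.20 against 0.002 to 0.03. Among deer in the dry period, animal 2 stood far below for NR1D2 A_73_P377556, at -0.93 against -0.08 to -0.03, and animal 3 below for PER1 A_73_P347211, at 0.19 against 0.27 to 0.29. HF animal 1 at peak lactation stood apart for 3 probes. It was low for PER2 A_73_P407741, at -0.21 against -0.07 to -0.06, high for CRY1 A_73_P091086, at 0.063 against -0.008 to 0.003, and high for NR1D2 A_73_109757, at -0.040 against -0.13 to -0.11. HF animal 4 in the dry period was low for the dim CLOCK probe A_73_P486893, at -0.13 against 0.03 to 0.06.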

How the results depend on the processing

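Counts of called clock probes for peak lactation against the dry period stayed at 0 in HF, PR and both breeds together, and for the HF against the PR response, under every alternative run. The fit with animal as replicate block, which the pairing of the same animals calls for, also gave 0 calls in deer and for the deer against the cattle response, and changed no call. There ARNTL in cattle had a limma adjusted p of 0.234 at -0.26. Array weights raised the deer lactation count from 0 to 5 and the deer against cattle response from 0 to 2. For HF against PR in the dry period, 1 call became 0 with processed signals, Cy5 alone, no filter on dim probes, slide as fixed factor, the compared arrays alone or without HF animals 2 and 3. It became 2 with scaling between arrays, array position as a factor or Tukey's unadjusted comparison, and 3 with median centring or array weights. Leaving out single arrays gave 0 to 2. At peak lactation 0 became 1 without background correction, with array weights or by Tukey's unadjusted comparison, and 2 with scaling. Deer against cattle gave 7 with scaling and 5 with Cy5 alone in place of 13 in the dry period, and 6 with Cy5 alone and 14 with processed signals in place of 10 at peak lactation. The HF against PR difference of CRY1 reversed to -0.034 with slide as fixed factor, and the deer against cattle difference of CRY2 in the dry period to 0.022 with processed signals. Relations across animals passing adjustment numbered 0 to 2 when single animals were left out. The fits without deer lactation animals 2 and 4 were chosen after seeing the data. Slide as fixed factor could not be fitted between deer and cattle. Unless stated, the cause of a change was not tested. Probes near background, TEF and the dim CLOCK and PER2 probes among them, allow no statement of size.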
